A study of Mus musculus with 6 samples.

Results

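The genes of mitochondrial fusion and fission were examined in brown adipocytes with and without UCP1, the carrier that lets protons back across the inner mitochondrial membrane and thereby turns respiration into heat. The group holds 10 genes chosen by name: Mfn1, Mfn2 and Opa1 for fusion, Dnm1l, Fis1, Mff, Mief1 and Mief2 for fission, and Oma1 and Yme1l1 for the proteases that cut OPA1. They are 10 of 22466 gene symbols with a RefSeq transcript and take up 13 of 28890 RefSeq transcripts. For each gene the RefSeq transcript with the highest mean was used. Mief1 and Mief2 stood under their older symbols, Smcr7l and Smcr7, and were matched by gene identifier. RNA was sequenced from 3 cultures of WT cells, numbered 10, 11 and 12, and from 3 of Ucp1-KO cells, numbered 13, 14 and 15. The cells of both genotypes came from mice of the strain 129SvEvS1. They were taken as precursors from the stromal-vascular fraction of interscapular brown fat and differentiated in the dish, and the labels name no treatment for either genotype. The labels name no allele beside the knockout of Ucp1. The 3 cultures of a genotype are described as independent, and which animals contributed to each is not given in the sources used here.

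Mitochondria form a network that is remodelled by fusion and fission. MFN1 and MFN2 are GTPases that join outer membranes, and OPA1 joins inner membranes and holds cristae in shape. OMA1 and YME1L1 cut OPA1 at different sites, whereby a loss of membrane potential activates OMA1, which shortens OPA1 and stops inner membrane fusion. DRP1, the product of Dnm1l, is a cytosolic GTPase that is recruited to the outer membrane by the adaptors MFF, MiD49 (Mief2) and MiD51 (Mief1), together with FIS1, and constricts the organelle. Brown adipocytes are rich in mitochondria, and noradrenaline is known to drive DRP1-dependent fragmentation in them. Most of this control acts on proteins (cleavage, phosphorylation and recruitment) and is not read by RNA sequencing.

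Library totals computed from the abundance values lay between 14989604 and 17727653 reads, and the smallest total was that of Ucp1-KO replicate 15. Ucp1 itself was listed at 981 to 1775 RPKM in WT and 307 to 409 in Ucp1-KO cultures. Its cultures did not overlap between genotypes, with a log2 fold change of -1.78, and yet it did not pass the limma test used below (adjusted p = 0.868). The knockout leaves a transcript without exons 2 and 3, and a value over the whole transcript includes what is left of it. Summed levels of 7 markers of mature adipocytes were 29439 to 31504 RPKM in WT and 30821 to 32658 in Ucp1-KO cultures, and those of 8 markers of brown adipocytes 1814 to 2031 and 1680 to 2700 RPKM. Summed levels of 10 stromal and preadipocyte markers were 744 to 1707 RPKM in WT and 631 to 1004 in Ucp1-KO. Pdgfra, Dcn and Lum of this list, named after their values were seen, did not overlap between genotypes, with Ucp1-KO the lower (log2 fold changes -0.33, -0.85 and -1.20, limma adjusted p = 0.868 for each). Of the other lists, Cebpa (mature adipocyte) and Cdk1 (cell cycle) did not overlap with Ucp1-KO the higher, and 11.2% of all transcripts tested did not overlap in either direction. By the mean of log2(RPKM + 1), Ucp1-KO was the lower for all 9 stromal markers tested and for 4 of 4 endothelial ones. By the same measure it was the higher for 7 of 7 mature adipocyte, 7 of 8 brown adipocyte, 5 of 5 macrophage, 2 of 2 muscle, 4 of 4 cell cycle and 3 of 5 mitochondrial mass genes, beside 49.6% of all transcripts tested. Endothelial (5 genes, 2.76 to 33.2 RPKM in WT and 5.55 to 15.6 in Ucp1-KO), macrophage (5 genes, 16.9 to 47.7 and 11.8 to 154 RPKM) and skeletal muscle markers (6 genes, 2.57 to 6.34 and 2.51 to 12.6 RPKM) were below the stromal sums in each culture. Ucp1-KO replicate 14 was the highest for macrophage genes, with Cd68 at 81.4 RPKM and Adgre1 at 40.8 RPKM, the former above each of the 10 genes in that culture. The 4 cell cycle markers summed to 7.49 to 11.9 RPKM in WT and 10.4 to 30.6 in Ucp1-KO cultures, highest in Ucp1-KO replicate 13. No marker was at 0 in all cultures. The 5 general genes of mitochondrial mass (Cs, Vdac1, Vdac2, Vdac3 and Tomm20) summed to 957 to 1045 RPKM in WT and 932 to 1024 in Ucp1-KO. In cultures, fewer cells of a type and less RNA per cell cannot be told apart. The part of these markers in the values below was not tested.

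All 10 genes were expressed in all 6 cultures, at 104 to 4680 reads per gene and culture. Mff was the most abundant and Oma1 the least, with a 13.9-fold distance between their means on the RPKM scale, which corrects for transcript length. With the transcript used for each gene, the levels fell into 4 steps that did not overlap in any culture. Mff (62.2 RPKM over 6 cultures), Mfn2 (56.3 RPKM) and Fis1 (52.6 RPKM) formed the first, and their ranges overlapped. Fis1 exceeded Opa1 (37.0 RPKM) 1.42-fold, and Opa1, Yme1l1 (36.2 RPKM) and Dnm1l (34.3 RPKM) overlapped. The other RefSeq transcript of Fis1 is longer, has nearly the same reads and was at 38.6 to 47.8 RPKM (mean 42.9). That range overlaps the 33.0 to 39.7 RPKM of Opa1, so the gap between Fis1 and Opa1 depends on the transcript used. Dnm1l exceeded Mfn1 (13.9 RPKM) 2.47-fold, and Mfn1, Mief1 (12.6 RPKM) and Mief2 (12.4 RPKM) overlapped. Mief2 exceeded Oma1 (4.46 RPKM) 2.78-fold. Among the 12259 genes with a tested RefSeq transcript, Mff ranked 884th and Oma1 7896th by mean RPKM.

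**Figure D1:**
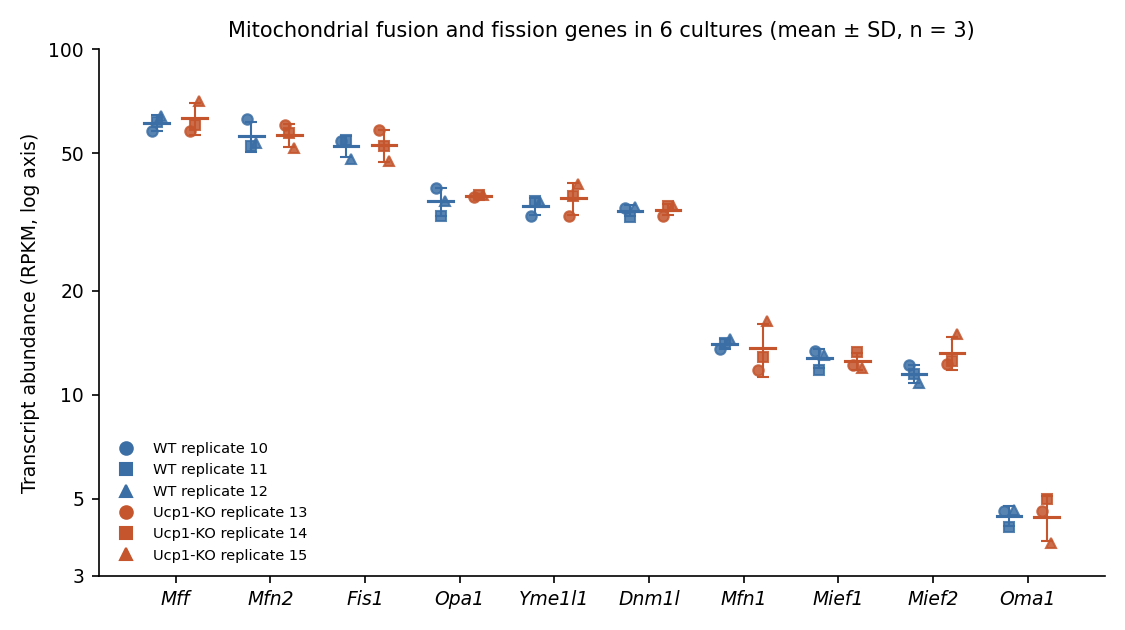
RPKM of the 10 genes in each culture on a log axis, WT in blue and Ucp1-KO in orange, with the mean (horizontal line) and SD (error bar) of 3 cultures. With the transcripts drawn, the 4 levels are separate, and within each gene the genotypes overlap except for Mief2.

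The sequence upstream of a RefSeq start was available for all 10 genes (250 bases, RefSeq on GRCm38.p6, 32851 windows in all). By the gene positions given further on, the windows of Fis1, Oma1 and Yme1l1 lie inside the gene, as does most of that of Mfn2. Only those of Mff and Mief2 lie wholly before the gene, so the counts below are not all of sequence before a gene. Mff and Mief2 are shown whole, because Mff is the most abundant of the genes and Mief2 the only one whose genotypes did not overlap. Capitals mark matches to CCAAT or GGGCGG on either strand. The window of Mff is chr1:82724640-82724889 and that of Mief2 chr11:60728148-60728397, both on the plus strand and read 5′ to 3′.
Mff: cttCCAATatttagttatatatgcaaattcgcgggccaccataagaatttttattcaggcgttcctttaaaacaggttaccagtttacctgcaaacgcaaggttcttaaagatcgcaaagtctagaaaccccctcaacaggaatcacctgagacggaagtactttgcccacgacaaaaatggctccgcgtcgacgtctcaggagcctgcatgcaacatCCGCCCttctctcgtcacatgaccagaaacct
Mief2: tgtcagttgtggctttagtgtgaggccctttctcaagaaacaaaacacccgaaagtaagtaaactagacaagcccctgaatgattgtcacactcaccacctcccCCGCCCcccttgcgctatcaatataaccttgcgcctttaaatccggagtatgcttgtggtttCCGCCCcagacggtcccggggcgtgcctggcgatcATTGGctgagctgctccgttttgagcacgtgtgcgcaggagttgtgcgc
Neither window holds TATAAA, which is found in 12.4% of all windows and in 0 of the 10 genes. CCAAT was present in 6 of the 10 (33.8% of all windows) and GGGCGG in 9 of the 10 (32.7% of all windows), all but Mfn2. Of the 6 motifs reported, all searched on both strands, that of the ETS family (CCGGAAGT), factors known for nuclear genes of mitochondria, was the rarest of those found in these genes. Its letters are in 2.88% of all windows and in Mfn1 (44 bases before the start) and Mief1 (65 bases before the start). Here the start is that of the promoter window. By the gene positions given further on, the match in Mfn1 spans the first base of the gene and that in Mief1 lies inside the gene. The 30 bases around each match follow, with the match in capitals, at chr3:32529427-32529456 and chr15:80234004-80234033, both on the plus strand.
Mfn1: gatccgaagcgCCGGAAGTagccgccccta
Mief1: ggaggggccgaCCGGAAGTgcttccgcctc
The letters AAGGTCA (4.08% of windows), a half-site of oestrogen-related receptors, and TGACGTCA (1.55%), the site of cAMP response, were in 0 of the 10 windows. The motifs were chosen after the windows had been seen, they can overlap each other, and a match is a description of letters and not a site.

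The genotypes were compared by limma on log2(RPKM + 1) over the 16865 RefSeq transcripts whose mean reached 0.5 RPKM, with Benjamini-Hochberg adjustment. Fold changes are on this scale, and gene positions are those of GRCm38, 1-based. Intervals in percent are changes of RPKM + 1, and they are narrower than in RPKM, most for genes of low level. Of the 10 genes, 0 passed the adjusted threshold of 0.05, beside 0% of all tested transcripts. At an unadjusted p under 0.05 there were also 0 of 10, beside 5.54% of all transcripts. In the 3 against 3 design an exact two-sided permutation test cannot go below p = 0.10. The mean log2 value of Ucp1-KO was the higher for 7 genes and the lower for 3, beside 49.6% higher among all transcripts, and the median log2 fold change was 0.01 against -0.00 for all. Ucp1-KO means were 97.3% to 115% of WT. Genotypes did not overlap in 1 of the 10 genes, Mief2, beside 11.2% of all transcripts in either direction and 6.04% with all Ucp1-KO cultures the higher.

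Of the outer membrane GTPases, Mfn2 at chr4:147873586-147904909 (minus strand) was at 62.6, 52.3 and 53.4 RPKM in WT replicates 10 to 12 and at 60.4, 57.3 and 51.8 RPKM in Ucp1-KO replicates 13 to 15. WT replicate 10 and Ucp1-KO replicate 13 were high, and the genotypes overlapped. The means were 56.1 ± 5.65 and 56.5 ± 4.35 RPKM (SD, n = 3), with a log2 fold change of 0.01 ± 0.11 (SE) and a limma 95% interval of the difference from -15.5% to 20.2%. Its paralog Mfn1 at chr3:32529443-32579225 (plus strand) was at 13.5, 14.1 and 14.5 RPKM in WT and at 11.8, 12.9 and 16.4 in Ucp1-KO. The Ucp1-KO cultures held both the lowest and the highest value, and the WT cultures lay between them. The means were 14.1 ± 0.487 and 13.7 ± 2.395 RPKM, with a log2 fold change of -0.05 ± 0.13 (limma adjusted p = 0.965) and an interval from -21.7% to 19.5%. The log2 fold change of Mfn1 was -0.18 without Ucp1-KO replicate 15 and turned to 0.045 without Ucp1-KO replicate 13. In each culture Mfn2 exceeded Mfn1, 3.16-fold to 5.12-fold.

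Opa1, the inner membrane GTPase at chr16:29579281-29663127 (plus strand), was at 39.7, 33.0 and 36.4 RPKM in WT and at 37.4, 37.9 and 37.9 in Ucp1-KO. The Ucp1-KO cultures lay within the range of WT and close together. The means were 36.4 ± 3.36 and 37.7 ± 0.309 RPKM, a log2 fold change of 0.05 ± 0.09 with an interval from -10.8% to 21.0% (limma adjusted p = 0.940). The 3 fusion GTPases summed to 115.9, 99.5 and 104.3 RPKM in WT and to 109.6, 108.1 and 106.1 in Ucp1-KO. These sums, too, lay within the range of WT. The table listed 2 RefSeq transcripts of Opa1, which differ by 54 bases and by 0 to 4 reads in a culture. They therefore share nearly all reads, and the abundance of single OPA1 isoforms, like their cleavage, cannot be told from these values.

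Of the OPA1 proteases, Yme1l1 at chr2:23155442-23199260 (plus strand), which cuts OPA1 constitutively, was at 32.9, 36.4 and 36.2 RPKM in WT and 32.9, 37.7 and 40.9 in Ucp1-KO. The lowest value of both genotypes was nearly the same, and Ucp1-KO replicate 15 was the highest. The means were 35.2 ± 1.98 and 37.1 ± 4.01 RPKM, with a log2 fold change of 0.07 ± 0.11 and an interval from -11.6% to 25.2% (limma adjusted p = 0.930). Oma1 at chr4:103311875-103371869 (plus strand), the stress-activated protease, was at 4.61, 4.14 and 4.66 RPKM in WT and 4.61, 5.01 and 3.72 in Ucp1-KO. Ucp1-KO replicates 14 and 15 were its highest and lowest culture. The means were 4.47 ± 0.285 and 4.45 ± 0.660 RPKM, a log2 fold change of -0.01 ± 0.12 with an interval from -19.0% to 21.4%. Oma1 rested on 104 to 161 reads, and counting error alone gives a coefficient of variation of 8.48% where 10.2% was measured over the 6 cultures. For the other 9 genes counting error gave 1.56% to 4.40%, and the measured values were 3.29% to 11.5%.

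Dnm1l, the fission GTPase at chr16:16312228-16359038 (minus strand), was at 34.8, 32.8 and 34.9 RPKM in WT and at 32.8, 35.2 and 35.1 in Ucp1-KO. It had the lowest coefficient of variation of the 10 genes, 3.29% over the 6 cultures, and each genotype had 1 culture at 32.8 RPKM. The means were 34.2 ± 1.18 and 34.4 ± 1.32 RPKM, with a log2 fold change of 0.01 ± 0.08 and an interval from -11.8% to 14.7%, the narrowest of the group (limma adjusted p = 0.9904). Its 2 RefSeq transcripts differ by 39 bases and by 0 reads, and they were not told apart.

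Among the adaptors of DRP1, Mff at chr1:82724890-82752390 (plus strand) was at 57.8, 61.7 and 64.3 RPKM in WT and 58.1, 60.3 and 70.8 in Ucp1-KO. Only Ucp1-KO replicate 15 lay outside the range of WT. The means were 61.3 ± 3.26 and 63.1 ± 6.75 RPKM (log2 fold change 0.04 ± 0.10, interval from -13.5% to 21.7%). Fis1 at chr5:136953275-136966234 (plus strand) was at 54.3, 54.8 and 48.1 RPKM in WT and 58.5, 52.6 and 47.4 in Ucp1-KO, so that Ucp1-KO held both extremes. The means were 52.4 ± 3.73 and 52.8 ± 5.51 RPKM (log2 fold change 0.01 ± 0.11, interval from -15.7% to 20.2%). Mief1 at chr15:80233964-80253372 (plus strand) was at 13.4, 11.8 and 13.1 RPKM in WT and 12.2, 13.3 and 12.002 in Ucp1-KO, which lay within the range of WT. The means were 12.8 ± 0.816 and 12.5 ± 0.706 RPKM (log2 fold change -0.03 ± 0.09, interval from -15.6% to 14.4%).

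Mief2 at chr11:60728398-60732951 (plus strand), which encodes the other MiD adaptor, had the largest difference of the group. It was at 12.2, 11.5 and 10.8 RPKM in WT and at 12.3, 12.5 and 14.97 in Ucp1-KO. The 3 Ucp1-KO cultures lay above the 3 WT cultures, but the distance between WT replicate 10 and Ucp1-KO replicate 13 was 0.0814 RPKM, or 0.668%. These cultures held 525 and 500 reads, and their 95% Poisson intervals, which cover counting error only, were 11.2 to 13.3 RPKM and 11.2 to 13.4 RPKM. They overlapped almost entirely, and Ucp1-KO replicate 15 lay apart from the other Ucp1-KO cultures. The means were 11.5 ± 0.696 and 13.3 ± 1.49 RPKM, 115% of WT, with a log2 fold change of 0.19 ± 0.11 and an interval from -4.51% to 35.9%. The difference did not pass the limma test (p = 0.124, adjusted p = 0.876), and the exact two-sided permutation p was 0.10, the smallest possible. Without single cultures the log2 fold change was 0.10 to 0.24, the lowest without Ucp1-KO replicate 15. Without that culture Mfn1 had the larger difference, at -0.18. The 4 adaptors summed to 138, 140 and 136 RPKM in WT and to 141, 139 and 145 in Ucp1-KO, and the ranges of these sums overlapped.

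**Figure D2:**
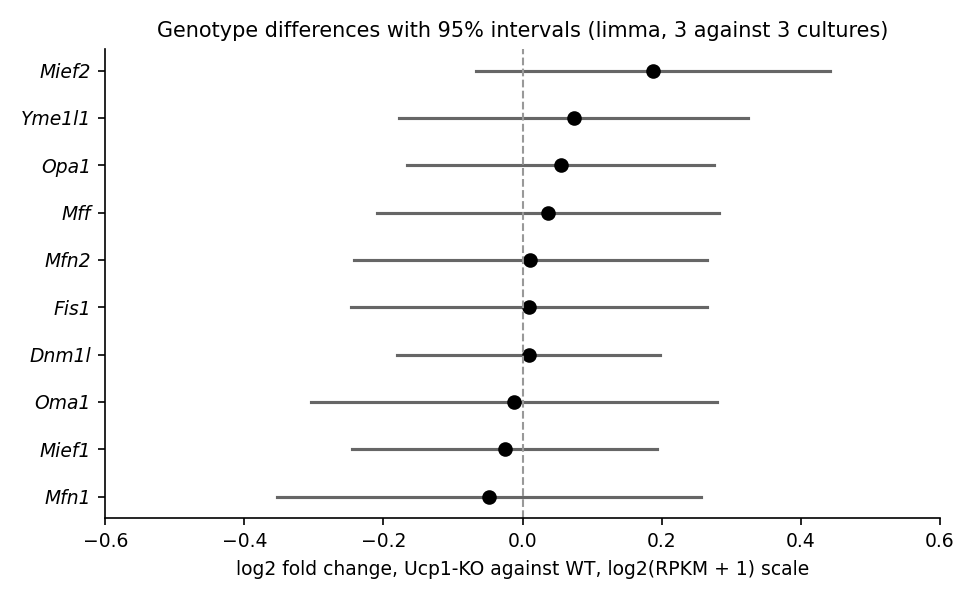
Log2 fold change of each gene between Ucp1-KO and WT on the log2(RPKM + 1) scale (points) with the 95% interval of limma (lines, 3 against 3 cultures). All 10 intervals include 0, and Mief2 lies farthest from it at 0.19.

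The intervals bound what these cultures could have shown. Over the 10 genes the lowest limit was -21.7% (Mfn1) and the highest 35.9% (Mief2). The genes varied little between cultures. Their median coefficient of variation was 8.01%, while it was 14.7% over the 12259 tested genes and 11.9% over the 7895 genes with a mean above that of Oma1. For all 10 genes the residual SD of the limma model was below the median of all transcripts (median 0.12 against 0.17 on the log2 scale).

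Ucp1-KO replicate 15 was the highest culture for Mfn1, Mff, Mief2 and Yme1l1 and the lowest for Mfn2, Fis1 and Oma1, 7 of 10 genes. WT replicate 10 was the highest or lowest for 5 genes, and each of the others for 1 to 3. Ucp1-KO replicate 15 also had the highest summed level of brown adipocyte markers (2700 RPKM) and the lowest of stromal markers (631 RPKM), and their part in these values was not tested. Its sum of mature adipocyte markers was also the highest (32658 RPKM), but 29312 RPKM of it was Fabp4. Without Fabp4 that sum was 3346 RPKM in Ucp1-KO replicate 15 and highest, at 4398 RPKM, in Ucp1-KO replicate 13. Across the 6 cultures, log2(RPKM + 1) of Mff ran with Mfn1 (Pearson's r = 0.90) and with Yme1l1 (r = 0.88) and opposite to Fis1 (r = -0.86) and Mfn2 (r = -0.83). These values describe 6 cultures that share the extreme values of Ucp1-KO replicate 15, and they are given without a test. The extremes thus split fusion genes and adaptors alike, with Mfn1 against Mfn2 and Mff against Fis1.

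**Figure D3:**
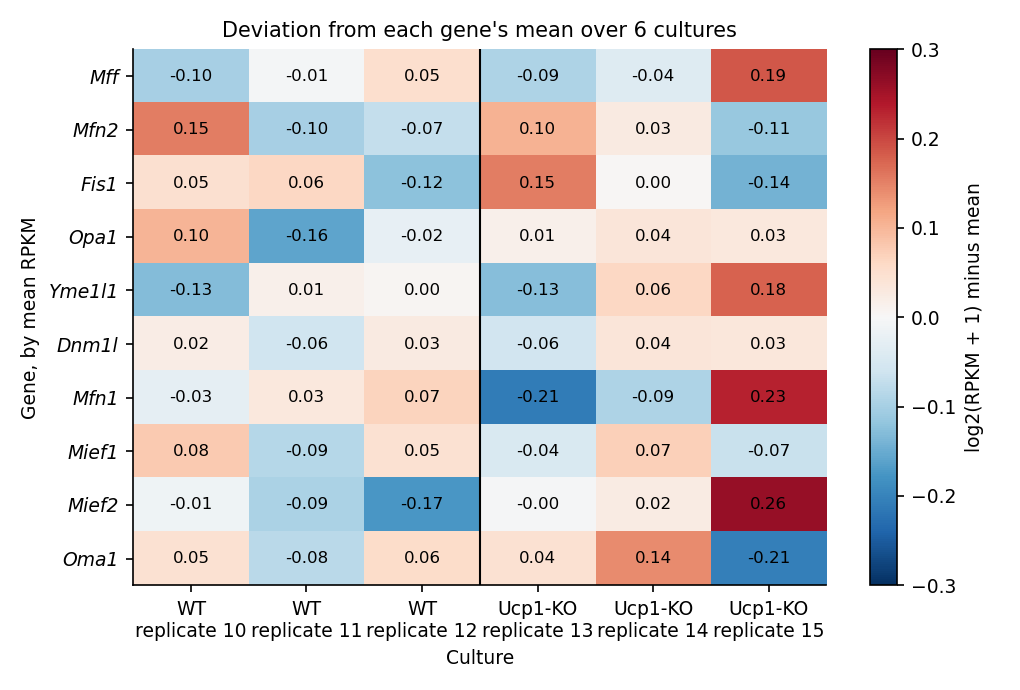
Difference of each gene's log2(RPKM + 1) from its mean over the 6 cultures, with genes ordered by mean RPKM and the line dividing WT from Ucp1-KO. The highest value is 0.26 for Mief2 in Ucp1-KO replicate 15, and the lowest is -0.21, for Mfn1 in Ucp1-KO replicate 13 and for Oma1 in Ucp1-KO replicate 15.

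Level ratios of 5 pairs with related roles were formed within each culture, where the library total cancels. Yme1l1 exceeded Oma1 8.12-fold (geometric mean, range 7.12 to 10.99) and Mfn2 exceeded Mfn1 4.07-fold (3.16 to 5.12), both in 6 of 6 cultures. Opa1 exceeded Dnm1l 1.08-fold (1.01 to 1.14), also in 6 of 6. Each of these 3 reached p = 0.03125 in an exact two-sided sign-flip test, the smallest that 6 cultures allow, which gave 0.0521 after Benjamini-Hochberg adjustment over the 5 pairs. They thus did not pass 0.05, which the smallest p could pass only if at least 4 of the 5 pairs had reached it. Mff exceeded Fis1 1.18-fold in 5 of 6 cultures (0.994 to 1.49, exact p = 0.0625, adjusted 0.0781). Against the other RefSeq transcript of Fis1 (38.6 to 47.8 RPKM), Mff (57.8 to 70.8 RPKM) was the higher in each culture. That ratio was not tested. The sign-flip p covers the spread of cultures and not the transcript and length chosen for a gene. Mief1 and Mief2 were at a ratio of 1.02 (0.802 to 1.21, exact p = 0.6875), with Mief1 the higher in 4 of 6 cultures. Levels of RNA are compared here, and amounts of protein may differ.

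Between the genotypes, the ranges of each of the 5 ratios overlapped. The exact test of 3 against 3 cultures could not have passed 0.05 for any ratio, since its smallest p is 0.10. The largest difference was that of Mief1 to Mief2, which was 1.11 in WT and 0.946 in Ucp1-KO, a log2 difference of -0.23 with an exact permutation p of 0.20. Without Ucp1-KO replicate 15 it was -0.11, and the difference of Mfn2 to Mfn1 was then the larger at 0.26. The ratio of Mfn2 to Mfn1 was 3.98 in WT and 4.16 in Ucp1-KO (log2 difference 0.06, exact p = 0.90). The ratio of Yme1l1 to Oma1 was 7.87 in WT and 8.39 in Ucp1-KO (0.09, exact p = 0.80). For Opa1 to Dnm1l and Mff to Fis1 the log2 differences were 0.05 and 0.03 (exact p = 0.50 and 0.90). After adjustment over the 5 pairs every p was 0.90.

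**Figure D4:**
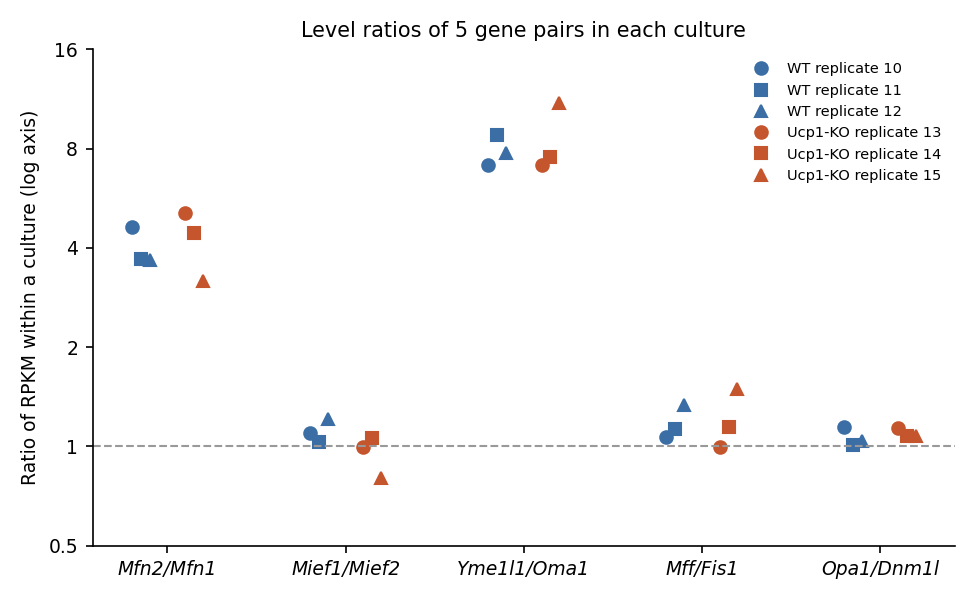
Ratio of RPKM of 5 gene pairs in each culture on a log axis, WT in blue and Ucp1-KO in orange, with the dashed line at equal levels. Mfn2/Mfn1 and Yme1l1/Oma1 are far above 1 in all cultures, and the genotypes overlap for each of the 5 pairs.

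Genes that work with the 10 were taken from 7 lists of 57 genes, 55 of which reached the minimum abundance (not Gdap1 and Mtfr2). None passed the adjusted threshold of limma (0 of 55), and 0 had an unadjusted p under 0.05. Ucp1-KO had the higher mean log2 value for 28 and the lower for 27, and genotypes did not overlap in 5 (9.09%, beside 11.2% of all transcripts). By list, the higher and lower means numbered 6 and 1 for fusion partners (median log2 fold change 0.07) and 3 and 6 for fission partners (-0.03). They numbered 2 and 4 for proteases of the inner membrane and other mitochondrial compartments (-0.03). For kinases, phosphatases and related regulators of DRP1 they were 3 and 8 (-0.03). They numbered 9 and 1 for MICOS, the scaffold of crista junctions, and its partners (0.09), 3 and 2 for mitochondrial transport (0.03), and 2 and 5 for mitophagy (-0.10). The median over all transcripts was -0.00.

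Of the fusion partners, the abundant prohibitin Phb2, whose complex protects OPA1 from cleavage, was at 178 ± 3.78 RPKM in WT and 174 ± 8.59 in Ucp1-KO. Pld6, a mitochondrial phospholipase, was at 0.662, 0.711 and 0.446 RPKM in WT and 1.05, 0.754 and 1.40 in Ucp1-KO. Its genotypes did not overlap, at very low levels (log2 fold change 0.36, limma adjusted p = 0.868). Of the list of proteases, Afg3l2 was at 71.5 ± 3.56 and 70.8 ± 8.17 RPKM. Parl, the rhomboid protease that cuts PINK1, was at 30.6, 30.9 and 30.1 RPKM in WT and 24.4, 28.2 and 27.0 in Ucp1-KO. All Ucp1-KO cultures lay below WT (log2 fold change -0.20, limma adjusted p = 0.868). Htra2 had the highest fold change of that list, at 0.05.

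Chchd3, the most abundant MICOS gene named here, was at 247 ± 22.3 RPKM in WT and 273 ± 14.3 in Ucp1-KO. Its relative Chchd6 was at 29.1, 28.9 and 28.1 RPKM in WT and 30.1, 31.9 and 35.4 in Ucp1-KO. The latter lay above all WT cultures (log2 fold change 0.17, limma adjusted p = 0.871). Mtx1 had the lowest fold change of the list, at -0.09. Of the DRP1 regulators, Prkaca, the catalytic subunit of protein kinase A, was at 130 ± 8.66 and 128 ± 16.6 RPKM, and Ppp3ca, a calcineurin subunit, had a log2 fold change of -0.20. Cdk1, the mitotic kinase, was at 3.34, 3.54 and 3.12 RPKM in WT and 9.03, 4.65 and 3.71 in Ucp1-KO. Ucp1-KO replicate 13 was the highest, as it was for the sum of the cell cycle markers, of which Cdk1 is 1 (log2 fold change 0.57, limma adjusted p = 0.871).

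Of the fission partners, Sh3glb1 was at 91.4 ± 1.19 RPKM in WT and 89.5 ± 3.76 in Ucp1-KO. Mtfp1, an inner membrane protein that promotes fission, had the highest log2 fold change of the list at 0.18, and Spire1, an actin nucleator, the lowest at -0.28. Neither was separate between genotypes. Of the transport genes, the motor Kif5b did not overlap between genotypes, at 22.3, 20.6 and 22.3 RPKM in WT and 23.7, 24.1 and 25.4 in Ucp1-KO (log2 fold change 0.16, limma adjusted p = 0.871), while the adaptors Rhot1 and Rhot2 had log2 fold changes of -0.08 and 0.08. Of the mitophagy genes, the receptor Bnip3 was at 187 ± 27.4 and 178 ± 67.9 RPKM, with a range from 107 to 242 RPKM within Ucp1-KO, and Bcl2l13 had the highest log2 fold change at 0.11. The spread of Bnip3 within a genotype thus exceeded the distance between genotypes.

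**Figure D5:**
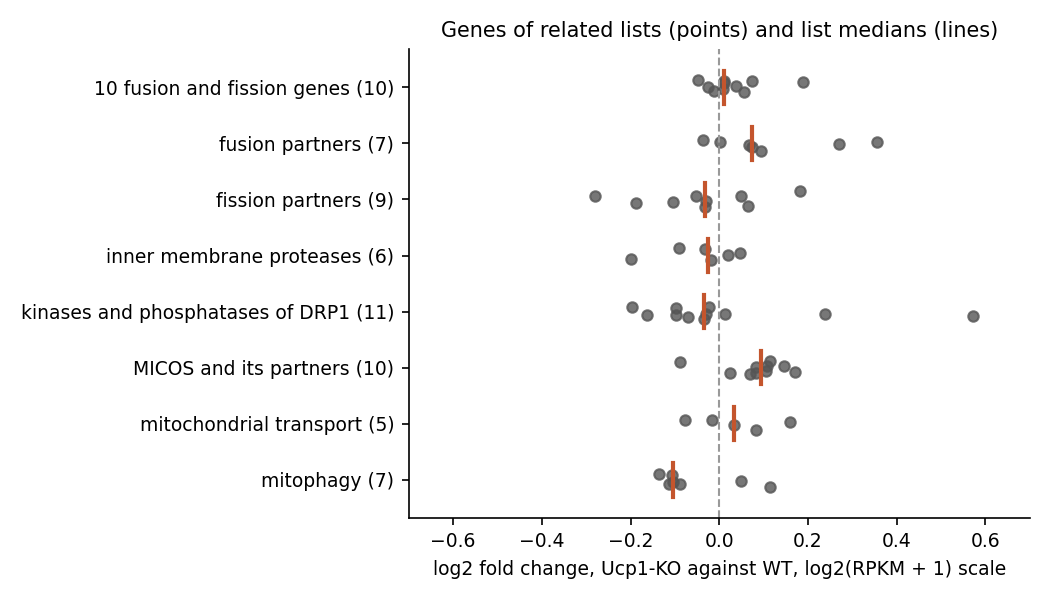
Log2 fold changes (Ucp1-KO against WT, log2(RPKM + 1) scale) of single genes (points) in 8 lists with the number tested in brackets, and the median of each list (orange line). The medians lie between -0.10 and 0.09, and the highest point is Cdk1 at 0.57.

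For 3 members the RefSeq genes of most similar pattern over the 6 cultures were sought among 12258 genes. For Mfn2 they were Rims4 (Pearson's r = 0.993), Csrnp1 (0.989) and Tesc (0.987), with 0.799, 3.20 and 2.82 RPKM on average. For Opa1 they were AK129341 (0.989), Optn (0.981) and Hspa1l (0.976), of which only Optn, at 26.8 RPKM, was near the level of Opa1. For Dnm1l they were Csl (0.978), Lypla1 (0.976) and Zfp748 (0.968). Csl is a close relative of Cs, with which it could share reads, so that its value is uncertain. These coefficients rest on 6 cultures and are given without a test.

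In all annotations of the table together, the 10 genes had 102 transcripts, and 100 of them reached the minimum abundance. In the fit over all annotations 0 of the 100 passed the adjusted threshold of limma (0% of all 95358 transcripts of that fit), and 1 had an unadjusted p under 0.05 (5.45% of all). It was a further transcript of Mief2 (log2 fold change 0.38). Log2 fold changes ran from -0.13 to 0.38, with 74 above 0 (52.5% of all), and 5 transcripts did not overlap between genotypes (11.1% of all). Transcripts of a gene share exons and thereby reads, and are not independent of each other.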

How the data were processed

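RNA of 6 cultures of primary brown adipocytes was sequenced as single reads. Alignment (GRCm38) and transcript quantification were done by the authors in Genomatix, and reads without a unique position do not enter the values. The deposited unit is RPKM, in which reads are scaled to transcript length and to the total mapped in a culture. The study compared the genotypes with DESeq2, which was not run here. Its differential genes included Ucp1 and Lum, while no transcript passed the limma fit reported here. Each of the 6 columns carries the name of its culture. RefSeq transcripts whose mean reached 0.5 RPKM (16865 transcripts of 12259 genes) were compared with limma 3.58.1 (R 4.3.3, empirical Bayes with trend, no covariates) on log2(RPKM + 1), with Benjamini-Hochberg adjustment and a threshold of 0.05. The minimum did not remove any of the 10 genes. RPKM values were turned into reads through library totals computed from Ensembl transcripts of known length (93.7% of their values whole within 0.05 reads), and all 16865 tested transcripts gave whole reads. Depth limits genes near the floor of 3 reads, and floor and intervals cover counting error only. Cultures of a genotype differed by more than counting error. Single values were compared by exact permutation tests. The steps were tested on simulated data. Promoters are from RefSeq (GRCm38.p6) and lie before the start given there, which can be within the range of other transcripts. Gene positions are from RefSeq on GRCm38. Named genes are the 10 members, in each related list the most abundant gene and those with the highest and lowest fold change, and 3 similar genes each for Mfn2, Opa1 and Dnm1l. Chchd6, Cdk1, Parl, Pld6 and Kif5b are also the genes without overlap. The members and lists were chosen with earlier results of these data known. Alternatives were a constant of 0.1 RPKM, no minimum, 1 transcript per gene, all annotations, median-of-ratios scaling, limma-voom on the reads, other RefSeq transcripts of a gene, and leaving out each culture. Other steps ran in Python 3.11.15 (scipy 1.17.1, numpy 2.4.6, pandas 2.3.3), and figures were drawn with matplotlib 3.10.9. The promoter motif of NRF1 was also searched and is not reported here.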

Additional observations from a re-analysis of the deposited data

How the results depend on the processing

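No paired analysis was possible because the replicate numbers of the genotypes are not shared. Of the 10 genes, 0 passed the adjusted threshold in any of 12 alternative fits, where the smallest adjusted p was 0.556 (limma, Mief2). Over all transcripts the count past the threshold was 0 in the reported fit and in all alternatives but 1. With no minimum abundance it was 22 of 28890 transcripts, at an unadjusted p under 0.05 1456, against 935 of 16865 in the reported fit, and the cause was not tested. Leaving out single cultures turned the sign of the log2 fold change for 8 genes. The ranges were -0.18 to 0.045 for Mfn1, -0.038 to 0.091 for Mfn2, -0.011 to 0.12 for Opa1, -0.019 to 0.040 for Dnm1l, -0.064 to 0.083 for Fis1, -0.048 to 0.092 for Mff, -0.075 to 0.0070 for Mief1 and -0.087 to 0.087 for Oma1. Mief2 (0.10 to 0.24) and Yme1l1 (0.0035 to 0.16) kept theirs. The log2 level ratio of Mief1 to Mief2 ran from -0.013 to 0.11. The genotype difference of log2 ratios ran from -0.085 to 0.26 for Mfn2 to Mfn1, from -0.10 to 0.21 for Yme1l1 to Oma1 and from -0.13 to 0.16 for Mff to Fis1, while Mief1 to Mief2 (-0.31 to -0.11) and Opa1 to Dnm1l (0.0089 to 0.10) kept their sign. With 5 cultures the smallest sign-flip p is 0.0625. With the RPKM of all RefSeq transcripts of a gene summed, the log2 ratio of Mff to Fis1 was -0.62 in place of 0.24, since the transcripts of Fis1 share reads and were then counted repeatedly. That pair then also reached the smallest p, by which the adjusted p of Mfn2 to Mfn1 (2.02), Yme1l1 to Oma1 (3.02) and Opa1 to Dnm1l (0.11) passed 0.05, the first 2 with the same ratios as reported. Of the related lists 0 genes passed the adjusted threshold in any alternative run, and without WT replicate 10 4 of 55 had an unadjusted p under 0.05, where 10.4% of all transcripts did. For the 10 genes, the 3 cultures per genotype limit the precision more than depth, except for Oma1.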
